A study of Mus musculus with 12 samples.

Results

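The colony-stimulating factors and their receptors were examined as a set of 9 genes among the 54833 in the table, taken by their symbols. The set holds 4 ligands (Csf1, Il34, Csf2 and Csf3) and 5 receptor chains (Csf1r, Csf2ra, Csf2rb, Csf2rb2 and Csf3r). All 9 were found, each in 1 row, and 8 of them passed the filter on low counts and were tested. The study sequenced RNA from perihematomal caudate putamen in 12 samples, 3 in each of 4 groups, 24 h after surgery. All animals were wild-type male C57BL/6 mice, young at 8 to 10 weeks or aged at 20 to 22 months, with intracerebral hemorrhage (ICH) induced by type IV collagenase or with a saline injection as sham surgery. Collagenase breaks down the walls of small vessels, and the sham groups also carry the needle track. Each sample pooled tissue of 2 or 3 mice, and errors given here are therefore between pools, not single animals.

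Colony-stimulating factors are cytokines that drive the survival, growth and activation of myeloid cells. CSF1 and IL-34 are separate proteins that act on the same receptor tyrosine kinase, CSF1R, on which microglia depend for survival, and in the forebrain IL-34 is known as a product mainly of neurons. GM-CSF (Csf2) binds an α chain (Csf2ra) that signals through the common β chain (Csf2rb), which IL-3 and IL-5 share, and G-CSF (Csf3) acts on neutrophils and their precursors through its own receptor (Csf3r). These β chain and G-CSF receptors signal through JAK kinases and STAT proteins. Mice carry an additional β chain gene, Csf2rb2, whose product serves IL-3.

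After ICH, the data showed higher mRNA of Csf1, of the G-CSF receptor Csf3r and of both β chains in young and in aged mice, and a lower level of Il34 in young mice. Csf3 rose from almost no reads in young mice. GM-CSF itself was at or under the detection limit in every library, and Csf1r had the smallest log2FC in size at both ages. In young ICH vs. young sham, 6 of the 8 tested genes were higher and 1 lower at an adjusted *P* under 0.05 (edgeR), where 19.1% of all 21495 tested genes passed, 9.89% as higher and 9.23% as lower. In aged ICH vs. aged sham, 4 were higher and 0 lower, against 13.2% of all tested genes, 7% as higher and 6.15% as lower. The criterion of the study is FC > 1.5 or < 0.67 and an unadjusted *P* under 0.05. The study applied it to DESeq2 values, and here it was applied to those of edgeR. By this criterion 5 were higher at each age and 0 lower, against 12.2% of all tested genes in young and 10.1% in aged mice. The ICH and sham samples did not overlap in 7 of the 8 genes at each age, against 35% and 35.1% of all tested genes. The median log2FC of the 8 genes was 0.83 in young and 0.66 in aged mice, while that of all tested genes was 0.02 and 0.00. The young count fell to 4 without young sham replicate 1, 2 or 3 or young ICH replicate 3. The aged count fell to 2 when replicate 1 or 2 of the aged sham group, or replicate 1 of the aged ICH group, was left out.

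The libraries held 28410896 to 37785160 counted reads. Aged sham replicate 3 stood apart from the other aged sham samples in Csf1, Il34, Csf3 and Csf3r. It held 29 Csf3 reads where the others held 3 and 0, and a summed level of neutrophil markers of 14.9 CPM where they had 4.04 and 4.92. In Csf2ra replicate 2 was the one apart, and in Csf2rb it was lowest, at 4.01 CPM against 7.35 and 9.79. Over all tested genes replicates 1 and 3 were the closest aged sham pair. Their mean chi-square per gene was 8.88, against 12.5 and 15.8 for the pairs with replicate 2. CPM are counts per library size after TMM scaling. In tissue, more RNA per cell and more cells of a type cannot be told apart.

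The upstream sequences of 5 of the 9 genes were in the RefSeq promoter table (build GRCm38.p6). Those of Csf1, Csf3r and Csf2rb2, a ligand and 2 receptor chains that rose after ICH at both ages, are shown because they hold a match to 1 of 2 motifs. The motifs were the NF-κB consensus and GAGGAA, the core that the myeloid factor PU.1 recognizes, searched on both strands in the 250 bases before the start. Matches are in capitals, and each sequence stops before the first base annotated as transcribed.
Csf1, chr3:107760470-107760719, minus strand: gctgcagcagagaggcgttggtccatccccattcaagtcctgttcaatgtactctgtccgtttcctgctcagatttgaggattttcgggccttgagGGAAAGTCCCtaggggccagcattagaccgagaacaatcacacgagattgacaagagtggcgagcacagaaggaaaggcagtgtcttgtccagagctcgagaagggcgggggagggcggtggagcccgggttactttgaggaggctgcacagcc
Csf3r, chr4:126024409-126024549, plus strand: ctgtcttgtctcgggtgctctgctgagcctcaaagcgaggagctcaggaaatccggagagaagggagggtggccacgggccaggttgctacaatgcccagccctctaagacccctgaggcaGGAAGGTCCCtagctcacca
Csf2rb2, chr15:78305722-78305971, minus strand: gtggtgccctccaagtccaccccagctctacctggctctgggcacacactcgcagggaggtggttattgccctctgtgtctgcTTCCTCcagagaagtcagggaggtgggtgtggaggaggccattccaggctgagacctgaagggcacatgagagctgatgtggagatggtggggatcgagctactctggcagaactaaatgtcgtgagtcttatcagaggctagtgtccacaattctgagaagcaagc

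Csf1 held its NF-κB match 144 bases before the end of the printed stretch, and Csf3r held 1 at 10 bases. The consensus matched 7.28% of 32544 promoter windows of this length. GAGGAA, which matched 23.4% of them, occurred in the windows of Csf2rb2, Csf2ra and Csf3r, where the matches of Csf2ra and Csf3r fall partly or wholly in transcribed bases and are not shown. The window of Csf2, chr11:54249900-54250149, held neither. It does not reach the annotated gene, which ends at 54249667 on the minus strand, and the bases between were not searched. A match is a description of the sequence and not evidence of binding.

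Levels can be compared between genes as FPKM, which is divided by transcript length. In young sham mice Csf1r had the highest mean, 23.8 ± 2.33 FPKM (SD, n = 3), and Il34 followed with 22.8 ± 1.22. Their samples overlapped, so the order of these 2 was within the spread. Csf2ra had 13.7 ± 0.747, Csf1 5.14 ± 0.543 and Csf3r 2.55 ± 0.24 FPKM. The β chains were lower, with 0.840 ± 0.0318 for Csf2rb2 and 0.718 ± 0.0878 for Csf2rb. Csf3 had 0.0505 ± 0.0362 and Csf2 none. The span in this group thus ran from the 90.9th percentile of all tested genes for Csf1r to the 1.27th for Csf3. In aged ICH mice the order was Csf1r (27.2 ± 0.583), Csf2ra (20.3 ± 1.85), Il34 (17.6 ± 1.59), Csf1 (12 ± 2.14), Csf3r (5.65 ± 0.771), Csf2rb (3.12 ± 0.324), Csf2rb2 (2.86 ± 0.256) and Csf3 (1.25 ± 0.469), all in FPKM. The samples of Csf2ra lay above those of Il34 there, while the 2 β chains overlapped.

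**Figure D1:**
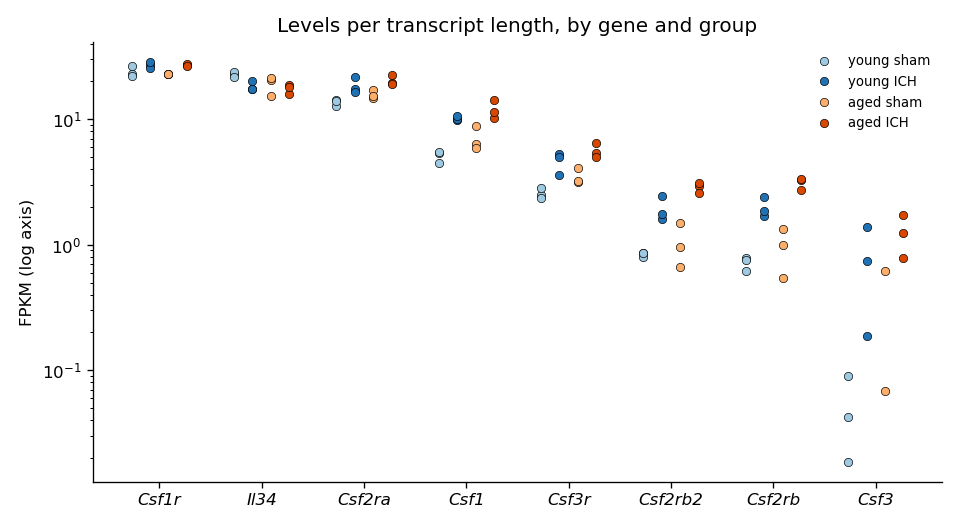
FPKM of 8 genes (log axis) in the 12 samples, colored by group, with 1 point per sample and genes ordered by their young sham mean. Csf2 is left out, and so is the aged sham sample in which Csf3 is listed at 0. Csf1r, Il34 and Csf2ra lie highest, and Csf3 spans the widest range, from 0.0187 to 1.72 FPKM.

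Csf1 (ENSMUSG00000014599, GRCm38 chromosome 3, 107741048 to 107760469) encodes macrophage colony-stimulating factor, the ligand of CSF1R that glia and vessel cells make. It stood at 29.8, 25.0 and 30.2 CPM in young sham and at 51.1, 53.0 and 54.2 CPM in young ICH samples. In aged mice it was at 34.3, 31.6 and 46.4 CPM after sham surgery and at 73.0, 51.5 and 58.3 CPM after ICH. All ICH samples lay above all sham samples of their age, and the highest sham value was aged sham replicate 3. The increase was 1.86-fold in young mice (95% interval 1.48 to 2.34, log2FC 0.90 ± 0.15 SE, edgeR adjusted *P* = 0.00337) and 1.63-fold in aged mice (1.3 to 2.04, log2FC 0.70 ± 0.15, edgeR adjusted *P* = 0.0133). The call in aged mice was lost without aged sham replicate 1 (adjusted *P* = 0.0561, edgeR), aged sham replicate 2 (0.052) or aged ICH replicate 1 (0.0627).

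Il34 (ENSMUSG00000031750, chromosome 8, 110741829 to 110805924) went the other way. It stood at 46.8, 49.2 and 43.8 CPM in young sham and 33.8, 39.0 and 33.1 CPM in young ICH samples, without overlap. The level after ICH in young mice was 0.758 of that after sham (95% interval 0.63 to 0.911, log2FC −0.40 ± 0.12, edgeR adjusted *P* = 0.04). In aged mice the values were 41.3, 42.0 and 30.2 CPM after sham surgery and 29.9, 35.5 and 34.2 CPM after ICH, which overlap through aged sham replicate 3. The aged log2FC of −0.19 ± 0.12 did not pass (edgeR adjusted *P* = 0.337), with an interval of the fold from 0.729 to 1.06. Without aged sham replicate 3 it was −0.33 (edgeR adjusted *P* = 0.0587). The young call was lost without young sham replicate 1, 2 or 3 (edgeR adjusted *P* = 0.0852, 0.134 and 0.061), young ICH replicate 1 or 3 (0.105 and 0.12) or aged ICH replicate 3 (0.0552). It was also lost with log2(FPKM + 1) and limma (adjusted *P* = 0.0842) and by the criterion of the study, and held in 11 of 19 alternatives. Of 10 markers of general neurons, 4 were lower in young and 1 in aged mice at an adjusted *P* under 0.05 (edgeR). Of all tested genes, 9.23% were lower in young and 6.15% in aged mice, so the aged count is near that share. Of the 10 markers, 0 had a positive log2FC at either age, with a median of −0.33 in young and −0.23 in aged mice. Their part in the Il34 result was not tested. The transcripts Gm15894 and Gm15895 lie on the opposite strand within or at the edge of Il34, but hold only 222 and 49 reads in all 12 samples against 14672 for Il34.

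The ratio of Csf1 to Il34 FPKM within a sample joins the 2 ligands of CSF1R. It was 0.236, 0.189 and 0.256 in young sham, 0.560, 0.503 and 0.607 in young ICH, 0.308, 0.279 and 0.569 in aged sham, and 0.907, 0.538 and 0.632 in aged ICH samples. Il34 thus had the higher FPKM in all 12 samples. In raw counts, which ignore length, the mean ratio was 0.612 in young sham and 1.5 in young ICH samples. It was 1.04 in aged sham and 1.87 in aged ICH samples. Which ligand was higher after ICH thus depends on the division by length. The young ICH samples lay above the young sham samples, by 2.47-fold in the geometric mean (exact permutation test, two-sided, *P* = 0.1, the smallest that 3 against 3 samples allow). In aged mice the ratio was 1.85-fold higher (exact permutation test, *P* = 0.2), and the groups overlapped through aged sham replicate 3, without which the aged sham mean fell from 0.385 to 0.294. Aged sham samples lay above young sham samples, by 1.63-fold (exact permutation test, *P* = 0.1).

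Csf1r (ENSMUSG00000024621, chromosome 18, 61100598 to 61132149), the receptor on microglia, monocytes and macrophages, had the smallest response. It was at 135, 118 and 112 CPM in young sham and 129, 125 and 134 CPM in young ICH samples, which overlap. In aged mice the ICH samples, at 129, 130.2 and 126 CPM, lay above the sham samples, at 114, 114 and 111 CPM. The fold was 1.07 in young mice (95% interval 0.964 to 1.18, edgeR adjusted *P* = 0.363) and 1.13 in aged mice (1.03 to 1.25, edgeR adjusted *P* = 0.0919), neither of which passed. The aged value passed without young sham replicate 1 (edgeR adjusted *P* = 0.041), with only the 2 groups compared in the fit (0.0386) and with log2(FPKM + 1) and limma (0.029). These 95% intervals reach up to 1.18-fold in young and 1.25-fold in aged mice, for mRNA of the tissue and not per cell. The 10 homeostatic microglia genes had a median log2FC of −0.05 in young and 0.00 in aged mice, with 2 lower and 0 higher in young and 2 lower and 1 higher in aged mice at an adjusted *P* under 0.05 (edgeR). Of all tested genes, 9.23% were lower in young and 6.15% in aged mice. The purinergic receptor P2ry12 fell by 0.70 on the log2 scale in young and by 0.85 in aged mice, and Siglech fell by 0.80 and 1.11 (edgeR adjusted *P* = 0.00592, 0.00536, 0.0159 and 0.00727). The gene that was higher in aged mice was Fcrls (log2FC 0.65, edgeR adjusted *P* = 0.0233, against 0.45 and 0.0711 in young mice). Of 12 monocyte and macrophage genes, 8 were higher in young and 7 in aged mice at an adjusted *P* under 0.05 (edgeR), against 9.89% and 7% of all tested genes. The last 873 bases of Csf1r are also covered by Hmgxb3 on the opposite strand, which holds 15233 reads in all against 47399 for Csf1r, and reads of the 2 cannot be told apart there if the strand was not used.

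**Figure D2:**
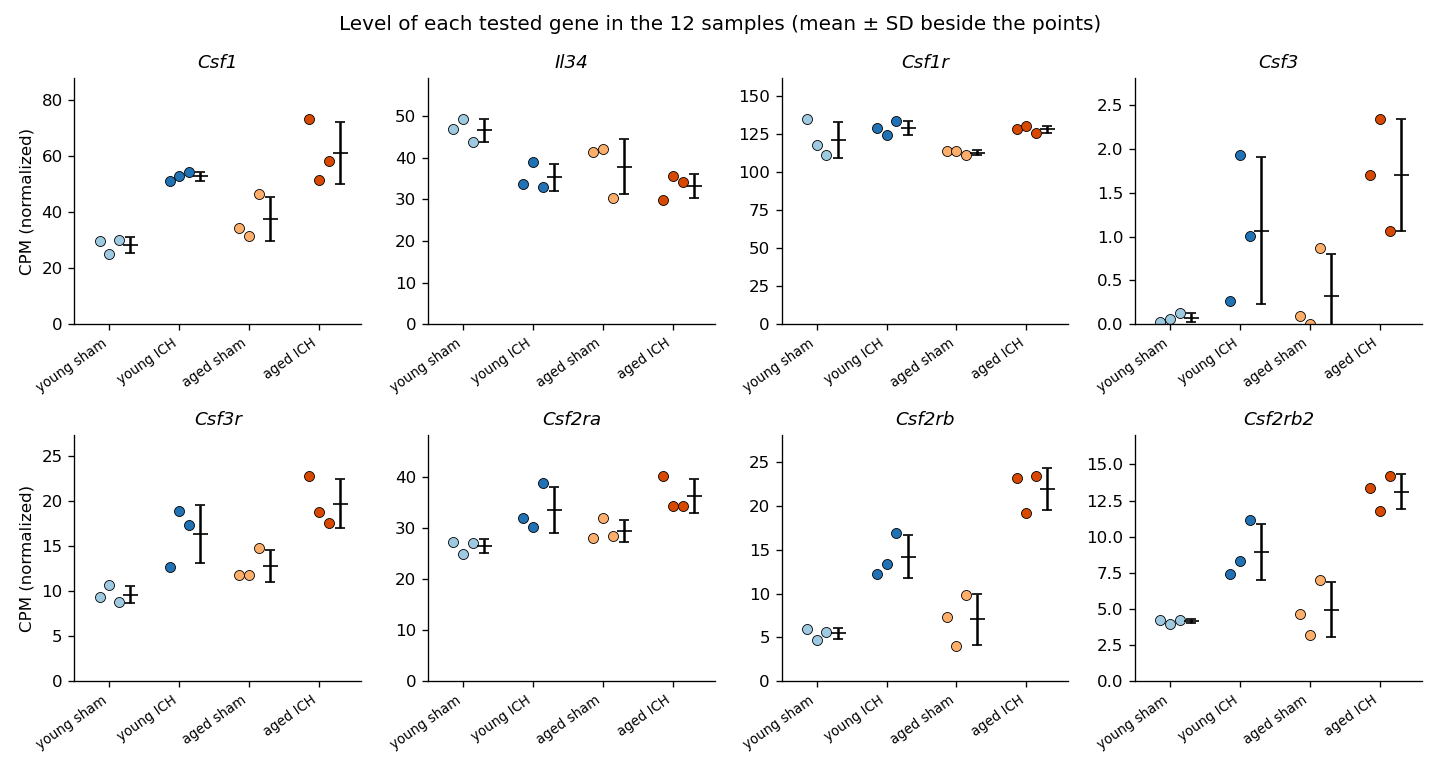
Normalized CPM of the 8 tested genes in the 12 samples (1 point per sample, mean ± SD beside the points, axes from 0, where the lower bar of Csf3 in aged sham is cut). Csf1, Csf3r, Csf2ra and both β chains are higher in every ICH sample than in every sham sample of the same age, Il34 is lower in young ICH samples, and Csf1r covers a narrow range.

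Csf3 (ENSMUSG00000038067, chromosome 11, 98701263 to 98703629) encodes G-CSF, which calls neutrophils out of the bone marrow and prolongs their life. Its reads were 1, 2 and 4 in young sham, 9, 58 and 32 in young ICH, 3, 0 and 29 in aged sham, and 61, 69 and 34 in aged ICH samples. All ICH samples held more normalized reads than the sham samples of their age, but young ICH replicate 1 held fewer than aged sham replicate 3. The fitted increase was 14-fold in young mice (95% interval 2.5 to 78.3, log2FC 3.81 ± 1.14, edgeR adjusted *P* = 0.0376) and 5.04-fold in aged mice (1.33 to 19.1, log2FC 2.33 ± 0.88, edgeR adjusted *P* = 0.103). Its young log2FC was larger than that of 99.9% of the tested genes. The spread between samples exceeded counting error, with a coefficient of variation of 78.4% in young ICH samples where counting alone gives 17.4%. The young call was lost without young sham replicate 1, 2 or 3 (edgeR adjusted *P* = 0.108, 0.119 and 0.0742), young ICH replicate 2 or 3 (0.103 and 0.0718) or aged ICH replicate 1 (0.0506), with the replicate block (0.0533) and with log2(FPKM + 1) and limma (0.0754). Without aged sham replicate 3 the aged log2FC was 4.98 and passed (edgeR adjusted *P* = 0.0191).

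Csf3r (ENSMUSG00000028859, chromosome 4, 126024550 to 126044440), the G-CSF receptor, had 9.34, 10.7 and 8.81 CPM in young sham and 12.7, 18.9 and 17.4 CPM in young ICH samples. Aged sham samples were at 11.8, 11.8 and 14.8 CPM and aged ICH samples at 22.7, 18.8 and 17.6 CPM. The ICH samples lay above the sham samples of their age. The increase was 1.7-fold in young (95% interval 1.33 to 2.17, edgeR adjusted *P* = 0.00814) and 1.54-fold in aged mice (1.21 to 1.96, edgeR adjusted *P* = 0.0256). In aged mice it did not pass without aged sham replicate 1 (edgeR adjusted *P* = 0.0963), aged sham replicate 2 (0.0913) or aged ICH replicate 1 (0.116). The receptor was present in every sham library while neutrophil markers were scarce. The 14 neutrophil genes summed to 1.35 to 2.63 CPM in young sham, 9.61 to 21.7 in young ICH, 4.04 to 14.9 in aged sham and 28 to 39.3 CPM in aged ICH samples. Of the 9 of them tested, 6 were higher in young and 5 in aged mice after ICH (edgeR), against 9.89% and 7% of all tested genes. Ly6g was at 0 to 0.126 CPM over all groups, and the part of neutrophils in the Csf3r result was not tested.

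Csf2 (ENSMUSG00000018916, chromosome 11, 54247271 to 54249667), which encodes GM-CSF, had 0 reads in 11 of 12 libraries and 1 read in aged ICH replicate 2, and was not tested. A count of 0 allows up to 3 reads, which is 0.0829 to 0.102 CPM in these libraries, for counting error only. A response to ICH below this level was not detectable at this depth.

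Csf2ra (ENSMUSG00000059326, chromosome 19, 61223957 to 61228429), the ligand-binding α chain for GM-CSF, had 27.3, 24.9 and 27.0 CPM in young sham and 31.9, 30.2 and 38.7 CPM in young ICH samples. It had 28.1, 31.9 and 28.4 CPM in aged sham and 40.1, 34.3 and 34.4 CPM in aged ICH samples. The groups did not overlap at either age, and the difference was small. It was 1.27-fold in young mice (95% interval 1.09 to 1.48, edgeR adjusted *P* = 0.0347) and 1.23-fold in aged mice (1.06 to 1.43, edgeR adjusted *P* = 0.0739, and 0.0457 with DESeq2). The young call was lost without young sham replicate 1, 2 or 3 (edgeR adjusted *P* = 0.0601, 0.129 and 0.0725) or young ICH replicate 3 (0.123), with the replicate block (0.0563) and with only the 2 groups compared in the fit (0.0736). By the criterion of the study it did not pass. The aged value passed without young ICH replicate 3 (0.033, edgeR) and with log2(FPKM + 1) and limma (0.0401). That sample had a summed level of choroid plexus markers of 4063 CPM, where the other young ICH samples had 9.92 and 52.8. Aged ICH replicates 1 and 2 had 1553 and 1965 CPM, against 40.3 in replicate 3 and 54.9 to 85.9 in aged sham samples. The part of this tissue was not tested, for Csf2ra or for the other genes of the set, which were measured in the same samples.

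Csf2rb (ENSMUSG00000071713, chromosome 15, 78325752 to 78353847), the β chain common to GM-CSF, IL-3 and IL-5, had the largest fold among the receptors. It rose from 5.97, 4.73 and 5.68 CPM in young sham to 12.2, 13.3 and 17.0 CPM in young ICH samples. In aged mice it rose from 7.35, 4.01 and 9.79 CPM to 23.2, 19.2 and 23.3 CPM. Every ICH value exceeded every sham value of its age. The increase was 2.6-fold in young (95% interval 1.77 to 3.81, log2FC 1.38 ± 0.25, edgeR adjusted *P* = 0.00461) and 3.1-fold in aged mice (2.12 to 4.54, log2FC 1.63 ± 0.25, edgeR adjusted *P* = 0.00505). Both calls held in each of the 19 alternatives tried.

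Csf2rb2 (ENSMUSG00000071714, chromosome 15, 78282507 to 78305721) lies 20030 bases from Csf2rb in the opposite orientation. It had 4.26, 4.0 and 4.22 CPM in young sham and 7.43, 8.29 and 11.2 CPM in young ICH samples, and 4.67, 3.20 and 7.01 CPM in aged sham and 13.4, 11.8 and 14.2 CPM in aged ICH samples. The groups were again apart at each age. The increase was 2.15-fold in young (95% interval 1.5 to 3.09, edgeR adjusted *P* = 0.00934) and 2.63-fold in aged mice (1.84 to 3.77, edgeR adjusted *P* = 0.00617), and these calls too held in all 19 alternatives. The 2 genes are close copies. Of the distinct stretches of 100 bases in their annotated transcripts, 334 are identical in both, which is 4.63% of those of Csf2rb and 6.82% of those of Csf2rb2. Reads from such stretches cannot be assigned, and the sources do not say how they were counted. The ratio of Csf2rb to Csf2rb2 FPKM was 0.853 ± 0.0742 in young sham and 1.04 ± 0.0431 in young ICH, and 0.917 ± 0.105 in aged sham and 1.09 ± 0.0368 in aged ICH samples (SD, n = 3 each). It was higher in every ICH sample than in every sham sample of its age, by 1.22-fold in young and 1.19-fold in aged mice (exact permutation tests, *P* = 0.1, the smallest possible).

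The α and β chains of the GM-CSF receptor therefore changed in unequal measure. The ratio of Csf2ra to Csf2rb FPKM was 18, 20.7 and 18.7 in young sham and 10.2, 8.91 and 8.98 in young ICH samples. It was 15.1, 31.3 and 11.4 in aged sham and 6.81, 7.02 and 5.79 in aged ICH samples. The ICH ratio was 0.489 of the sham ratio in young and 0.372 in aged mice (exact permutation tests, two-sided, *P* = 0.1, the smallest possible). It was lower in aged ICH than in young ICH samples, at 0.697 (exact permutation test, *P* = 0.1), while the sham groups of the 2 ages overlapped (exact permutation test, *P* = 0.8). In FPKM the α chain was still several times the β chain after ICH. In raw counts, which ignore length, the mean ratio was 2.38 in young ICH and 1.66 in aged ICH samples. The α chain was thus in excess in raw counts too, but the size of the excess depends on the division by length.

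**Figure D3:**
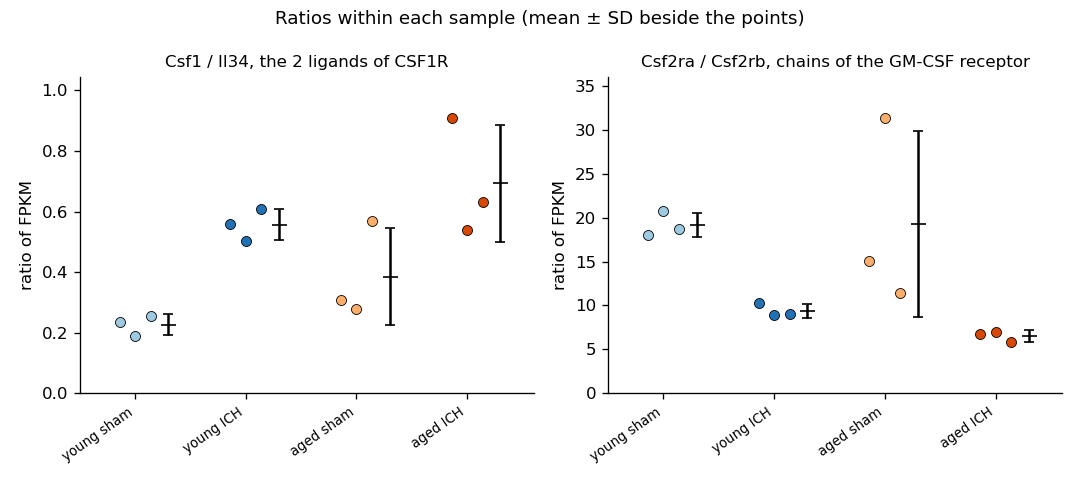
Ratio of Csf1 to Il34 FPKM (left) and of Csf2ra to Csf2rb FPKM (right) within each of the 12 samples, with 1 point per sample and the mean ± SD beside the points. The left ratio is higher in the ICH groups apart from aged sham replicate 3 at 0.569, and the right ratio is lower in every ICH sample than in every sham sample of its age.

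Age was compared within each surgery, in the same samples that enter the ICH comparisons. In aged sham vs. young sham, 0 of 8 genes passed an adjusted *P* of 0.05 with edgeR and 3 had an unadjusted *P* under 0.05, with the same 2 counts in DESeq2, and 0.102% of all tested genes passed. Those 3 were Csf1 (1.32-fold, edgeR adjusted *P* = 0.321), Csf3r (1.33-fold, adjusted *P* = 0.334) and Il34 (0.812 of the young level, adjusted *P* = 0.346). In 4 of the 8, which are these and Csf2ra, every aged sham sample lay on one side of every young sham sample, against 21% of all tested genes. Without aged sham replicate 3 the edgeR *P* values of the 3 were 0.133, 0.117 and 0.128, with log2FC of 0.22, 0.29 and −0.16. The Csf3 log2FC of 2.16 ± 1.28 turned to −0.49 without this sample, and that of Csf2rb2 from 0.26 to −0.08.

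Between the ICH groups, 0 of 8 genes passed with edgeR, where 0.0558% of all tested genes did, and 2 had an unadjusted *P* under 0.05, again with the same counts in DESeq2. These 2 were the β chains. Csf2rb was 1.54-fold higher in aged ICH than in young ICH samples (95% interval 1.07 to 2.23, edgeR adjusted *P* = 0.454) and Csf2rb2 1.46-fold (1.03 to 2.07, edgeR adjusted *P* = 0.487). In both, the aged ICH and young ICH samples did not overlap, as in 13.3% of all tested genes in either direction. By the criterion of the study, applied to the edgeR values, Csf2rb would count as different, as would 3.52% of all tested genes. Csf1r in aged ICH samples was at 0.991 of the young level (0.897 to 1.09).

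The interaction of age and ICH, the difference of the 2 ICH effects, did not pass for any of the 8 genes. In edgeR and in DESeq2 0 had an adjusted and 0 an unadjusted *P* under 0.05, and 0% of all tested genes passed in edgeR. The aged response divided by the young response had a 95% interval of 0.635 to 1.21 for Csf1, 0.925 to 1.23 for Csf1r, 0.779 to 1.2 for Csf2ra and 0.7 to 2.04 for Csf2rb. For Csf3 it ran from 0.0364 to 3.57, and its log2 value of −1.47 ± 1.51 became 1.17 without aged sham replicate 3. The interaction of Csf2rb2 was 0.29 ± 0.33, and 0.63 without aged sham replicate 3 (edgeR unadjusted *P* = 0.0395, adjusted *P* = 1).

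**Figure D4:**
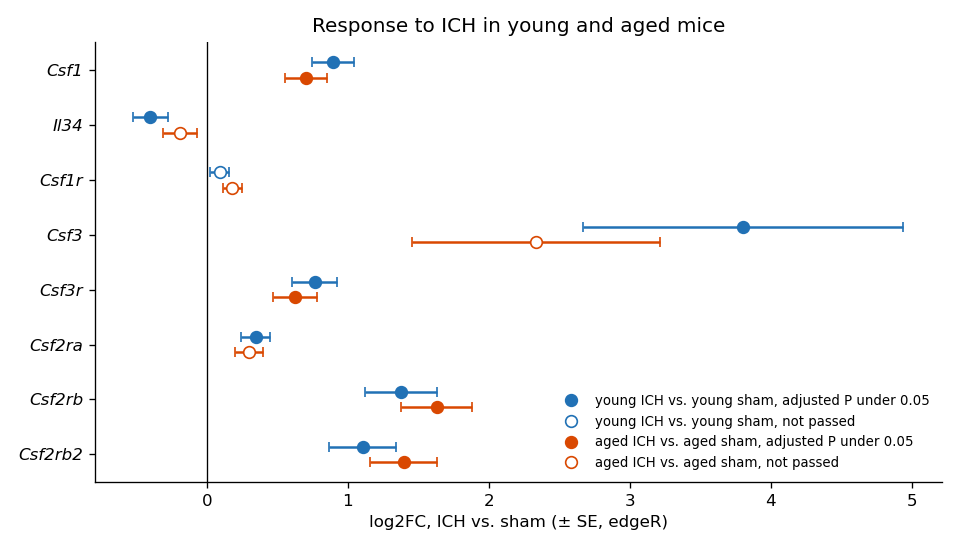
log2FC of ICH vs. sham with its SE (edgeR, n = 3 per group) for the 8 tested genes in young (blue) and aged (orange) mice, with filled points where the adjusted P is under 0.05. The 2 ages lie on the same side of 0 for every gene, and the widest error bars are those of Csf3.

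Genes around the receptors were taken from lists written by role. For the counts of these lists, 9.89% of all tested genes were higher and 9.23% lower in young mice (edgeR adjusted *P* under 0.05). In aged mice the shares were 7% and 6.15%. Of 18 signal transducers, 10 were higher and 1 lower in young ICH mice and 8 were higher and 0 lower in aged ICH mice (edgeR adjusted *P* under 0.05), and by the criterion of the study 7 and 6 were higher. Among them Stat3, the main STAT of the G-CSF receptor, rose by a log2FC of 1.03 ± 0.16 in young (edgeR adjusted *P* = 0.00224) and 0.93 ± 0.16 in aged mice (0.00612). Of the STAT5 genes, which serve the β chain receptors, Stat5a rose by 1.08 ± 0.16 in young (edgeR adjusted *P* = 0.00201) and 0.77 ± 0.16 in aged mice (0.0117). Stat5b, with 31 to 37 CPM in young sham samples where Stat5a had 2.82 to 3.23, had a log2FC of −0.09 and −0.12 (edgeR adjusted *P* = 0.519 and 0.407). The adaptor Shc1 rose by 0.66 in young and 0.59 in aged mice. The median log2FC of the 18 genes was 0.38 in young and 0.26 in aged mice.

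Of 10 feedback and STAT target genes, 8 were higher in young and 7 in aged mice and 0 lower, with a median log2FC of 0.92 and 0.95. Socs3, the feedback inhibitor of STAT3 signaling, rose by 2.17 ± 0.40 in young (edgeR adjusted *P* = 0.0046) and 1.81 ± 0.39 in aged mice (0.0137). The survival gene Mcl1 rose by 0.72 and 0.79, and the kinase Pim1 by 0.69 and 0.97. These genes answer to many cytokines besides the colony-stimulating factors.

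Of 10 myeloid transcription factors 9 were tested, of which 7 were higher in young and 6 in aged mice and 0 lower. Cebpa, needed for the granulocyte and monocyte lineages, rose by 1.12 in young and 0.98 in aged mice, and Cebpb by 1.98 and 1.93. Runx1 rose by 1.04 and 1.24. Spi1, which encodes PU.1, rose by 1.06 in young (edgeR adjusted *P* = 0.0112) and 1.01 in aged mice (0.0195), and Irf8 by 0.52 in young (edgeR adjusted *P* = 0.0181) and 0.62 in aged mice (0.0126).

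Among 4 other IL-34 receptors and sheddases, Sdc1, a proteoglycan that binds IL-34, rose by 2.0 in young and 1.48 in aged mice (edgeR adjusted *P* = 0.00187 and 0.00823). Ptprz1, a phosphatase that serves as another IL-34 receptor, was lower in aged mice (log2FC −0.33, edgeR adjusted *P* = 0.0476, against −0.06 and 0.725 in young mice), and the difference of the ages did not pass (edgeR interaction adjusted *P* = 1). Without aged sham replicate 3 the number of these 4 called in aged mice was 1. The sheddases Adam10 and Adam17 did not pass in either age.

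Of 4 partners of the common β chain, only Il3ra could be tested, and it did not pass (log2FC 0.53, edgeR adjusted *P* = 0.147 in young and 0.47, adjusted *P* = 0.214 in aged mice). Il3 had no read in any library. Of 7 cytokines that induce colony-stimulating factors, 4 were tested and 1, Il33, rose at both ages (log2FC 1.08 and 0.90, edgeR adjusted *P* = 0.00801 and 0.0233). Il1b, a strong inducer of G-CSF, had a log2FC of 2.04 ± 0.69 in young and 1.39 ± 0.63 in aged mice (edgeR adjusted *P* = 0.0604 and 0.169). The number called in this list was 2 at each age without aged sham replicate 3. No gene of any of these lists passed in aged sham vs. young sham or aged ICH vs. young ICH at an adjusted *P* under 0.05 (edgeR).

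Cell type markers moved in the same comparisons, and their part in the results above was not tested. Of all tested genes, 9.89% were higher and 9.23% lower in young mice, and 7% higher and 6.15% lower in aged mice. At an adjusted *P* under 0.05 (edgeR), 7 of 10 disease-associated microglia genes were higher in young and 5 in aged ICH mice, and 6 of 8 endothelial genes in young and 4 in aged. Of 8 astrocyte genes 3 were higher in young mice, and 2 were higher and 2 lower in aged mice. Of 6 fibroblast genes 1 was higher at each age. Of the 5 red blood cell genes tested 3 were higher in young and 0 in aged mice, and of 7 T cell genes 1 and 0. A single call among 6 or 7 genes is near the share of all tested genes. The 2 NK cell, the 2 B cell and the 6 choroid plexus genes tested gave 0 calls at either age. The 10 striatal neuron genes also gave 0 calls, but all 10 had a negative log2FC at both ages, with a median of −0.96 in young and −1.19 in aged mice. Their summed level was 1790 to 3049 CPM in young sham, 516 to 1738 in young ICH, 1524 to 2662 in aged sham and 327 to 1926 CPM in aged ICH samples. Of 8 oligodendrocyte genes 0 were called in young mice and 4 were lower in aged mice. Monocyte and macrophage genes summed to 158 to 177 CPM in young sham, 335 to 430 CPM in young ICH, 138 to 262 CPM in aged sham and 359 to 443 CPM in aged ICH samples, without overlap between sham and ICH. The largest part of this sum was Fn1, with 98.7 to 114, 205 to 241, 79.7 to 143 and 181 to 253 CPM in the same order. The sum therefore mainly follows this gene and is not a measure of cell number. Homeostatic microglia genes summed to 355 to 423, 363 to 441, 372 to 410 and 369 to 436 CPM in the same order, with overlap throughout.

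For each gene that passed in an ICH comparison, the 3 tested genes with the most similar log2 CPM over the 12 samples were listed. The samples share their groups, so these correlations largely follow the difference of ICH and sham, and r of the deviations from the group means stands beside them. Closest to Csf3 were the neutrophil chemokine Cxcl2 (r = 0.97, deviations 0.90) and Il1b (0.96, 0.91), followed by Ddx31 (0.95, 0.89). Closest to Csf3r were S100a9, a calcium-binding protein of neutrophils (0.98, 0.87), Bnip2 (0.98, 0.86) and Mob3a (0.97, 0.88). The β chains were closest to each other (0.99, 0.96), and the part of their shared sequence in this was not tested. Next came Msn (0.99, 0.97) and Hlx (0.99, 0.89) for Csf2rb, and Hk2 (0.98, 0.93) and Jak3 (0.98, 0.91) for Csf2rb2. Among the genes closest to Csf1 were Syde1 (0.98, 0.92) and Vasp (0.98, 0.87). Il34 was closest to Tbpl1 (0.95, 0.89), Tspyl3 (0.94, 0.88) and Arf3 (0.94, 0.92), and Csf2ra to Usp40 (0.97, 0.90), Tbca (0.96, 0.85) and Fignl2 (0.96, 0.94).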

How the data were processed

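RNA of 12 pooled samples was sequenced by the authors. Per the labels and the methods of the study, they aligned paired reads to GRCm38.p6 with Hisat2 v2.0.5 and counted them per gene with FeatureCounts v1.5.0-p3. The authors deposited raw counts of 54833 genes, and for each also the FPKM (fragments scaled for transcript length and depth) of each sample. Strand use and the treatment of reads with several alignments are not given in the sources used here. All columns were assigned to samples by name.

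Counts were tested with edgeR 4.0.16 (R 4.3.3, limma 3.58.1) by the quasi-likelihood test with TMM normalization, in 1 model with 4 groups, after filterByExpr (minimum count 10), which left 21495 genes. A gene was called at a Benjamini-Hochberg adjusted *P* under 0.05 over all genes tested. The SE of log2FC was computed as |log2FC|/√F, and intervals are at the 95% level of this fit. CPM use the normalized library size, and log2 CPM a prior count of 2. Ratios of FPKM were compared with two-sided exact permutation tests. The procedure was tested on simulated data. Positions are from GENCODE vM21, of the same build.

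The genes and the lists around them were chosen with earlier results of these data known. The 9 genes are all named. Of each pathway list up to 4 genes of the smallest *P* could be named in a comparison, of which part is given, and 3 genes by likeness, of which 1 is not reported here. P2ry12, Siglech, Fcrls, Ly6g, Stat5b, the aged values of Stat5a and Spi1, the young value of Irf8 and the genes named because they failed the test or were untested fall outside this rule and were chosen after their values were seen. The motifs were also chosen late, as were FPKM ratios other than that of Csf1 to Il34.

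Replicates are biological replicates by their labels and separate pools by the methods of the study, and no 2 samples of a group held near-identical counts. Alternatives were DESeq2 1.42.0, its size factors, no filter, 2 groups at a time, the replicate block, the criterion of the study, log2(FPKM + 1) with limma, and each sample left out in turn.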

Additional observations from a re-analysis of the deposited data

How the results depend on the processing

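With log2(FPKM + 1) and limma, 7 genes of the set passed in aged ICH vs. aged sham in place of 4, and by the criterion of the study 1 passed in aged ICH vs. young ICH in place of 0. Leaving out 1 sample gave 4 to 7 calls in young and 2 to 5 in aged ICH vs. sham, and 0 in the other comparisons. Under every other alternative the counts stayed within 1.5 times. Samples with the same replicate number showed no shared deviation of note (r of −0.22 to 0.17 between the young groups, −0.1 to 0.23 between the aged groups, −0.2 to 0.12 between the sham groups and −0.45 to −0.1 between the ICH groups). The samples were treated as unpaired. With 3 samples per group these values cannot exclude a processing step shared by number. With the replicate block 5 genes passed in young mice, without Csf3 and Csf2ra, and 4 in aged mice.

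Direction turned only in results that were not called. Csf1r in aged vs. young ICH, −0.013 in the reported test, was 0.011 with FPKM and ran from −0.037 to 0.012 with 1 sample left out, where the absence of young ICH replicate 3 (0.012) or of aged ICH replicate 3 (0.0011) turned it. In aged vs. young sham, log2FC ran from −0.49 to 2.80 for Csf3 and from −0.079 to 0.49 for Csf2rb2, with both lowest values from leaving out aged sham replicate 3. The interaction of Csf3 was 0.19 with FPKM and ran from −2.12 to 1.17, positive without aged sham replicate 3. That of Csf2ra ran from −0.13 to 0.066, positive without young ICH replicate 3 or, at 0.013, aged sham replicate 2, and that of Csf2rb from −0.024, without aged sham replicate 2, to 0.57. The cause was not tested. Ratios of raw counts, which ignore length, were higher or lower than ratios of FPKM by a fixed factor. Depth limits Csf2, Il3 and Csf3 in sham samples. The lists without aged sham replicate 3 and the ratios of the β chains were chosen after seeing the data.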

Other observations

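Across the 12 samples the 2 ligands of CSF1R ran opposite to each other, with r = −0.90 between Csf1 and Il34 in log2 CPM and −0.86 between their deviations from the group means. Aged sham replicate 3 stood apart from its group in both genes, with 46.4 CPM of Csf1 and 30.2 CPM of Il34. The part of this sample in r was not tested. Csf1 and Csf1r had r = 0.48, with −0.04 for the deviations, and Il34 and Csf1r −0.23 and 0.07. Csf3 and Csf3r had r = 0.90 and 0.70. Csf2ra, with r = 0.78 to Csf2rb, had 0.01 for the deviations, so that the relation of these chains lay in the group means. The samples share groups, pools and normalization, and these values are a description.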
